A study of Mus musculus with 6 samples.

Results

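The vacuolar H+-ATPase (V-ATPase) and the genes that act with it to acidify organelles were followed in mouse erythroid cultures treated with NUP-17d. Members were chosen by gene symbol, with earlier results of these data known. They comprised every gene whose symbol begins with Atp6v or Atp6ap, together with Tcirg1, Rnasek, the intracellular chloride/proton exchanger genes Clcn3 to Clcn7, Ostm1, Dmxl1, Dmxl2 and Wdr7. The rule found 32 of the 17060 genes listed in any library, with 9 in the membrane sector V0, 11 in the cytosolic sector V1, 3 accessory genes, 6 in the exchanger group and 3 rabconnectin genes. Atp6v0a4, Atp6v1e2 and Atp6v1g3 were not analysed here.

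Lineage-negative BM cells from WT mice were placed in EPO-containing medium, which drives them toward erythroblasts, and received either the vehicle DMSO or NUP-17d, a small-molecule inhibitor of Plek2, for 48 hours. RNA was sequenced from 3 DMSO and 3 NUP-17d libraries, and both groups had the same genotype and medium. The study's methods name C57BL/6 for the WT mice of the drug screen. The strain and age of the mice behind these libraries, and whether the libraries came from separate animals, are not given in the sources used here, so p-values measure the spread between these libraries, which may be technical. Expected counts summed to 20278433 to 20419018 per DMSO library and to 20076409 to 20170197 per NUP-17d library. Hemoglobin genes took 18.3% to 20.3% of the counts with DMSO and 11.8% to 13.1% with NUP-17d. In these bulk samples, fewer cells of a type and less RNA per cell cannot be told apart.

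The V-ATPase is a rotary proton pump. Its V1 sector (subunits A to H) hydrolyzes ATP in the cytosol, and its V0 sector (subunits a, b, c, d and e) carries protons through the membrane of endosomes, lysosomes and the Golgi. CLC exchangers on the same membranes trade chloride for protons, and rabconnectins help V1 join V0. In erythroblasts, acid in the endosome releases iron from transferrin bound to its receptor, and the iron then goes to heme.

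Many lysosomal genes carry an E-box in their promoters, a short palindrome with the core CACGTG. In its extended form TCACGTGA it is the center of the CLEAR element, which is bound by TFEB and its relatives TFE3 and MITF. RefSeq promoters (build GRCm38.p6, 250 bases before to 50 bases after each start) were on hand for 20 of the 29 members tested for differential expression, in 29 windows. Those of Atp6v0a2, Atp6v0d2, Atp6v1b2, Atp6v1c1, Atp6v1g1, Atp6v1h, Dmxl1, Rnasek and Wdr7 were not analysed here. On either strand, TCACGTGA was found in 5 of the 29 windows (17.2%) and in 320 of all 32851 promoter windows (0.974%). The shorter TCACGTG, which every TCACGTGA contains, was in 24.1% of member windows and 3.77% of all windows. CACGTG alone was in 24.1% and 7.15%. The windows with a core belonged to 7 of the 20 genes. The stretches around the cores are shown because they are the sequence feature that these 7 genes share. Each is written 5′ to 3′ on the strand of its gene, with capitals for the E-box core and the matching T or A at its edges.

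Atp6v0b (chr4:117887330-117887396, minus strand): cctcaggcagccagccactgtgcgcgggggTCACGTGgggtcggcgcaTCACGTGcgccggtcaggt
Atp6v0d1 (chr8:105566051-105566078, minus strand): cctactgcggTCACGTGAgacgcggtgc
Atp6v0e (chr17:26676388-26676415, plus strand): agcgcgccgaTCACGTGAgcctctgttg
Atp6v1a (chr16:44139354-44139421, minus strand): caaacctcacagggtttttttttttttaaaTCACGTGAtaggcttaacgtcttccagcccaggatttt
Clcn4 (chr7:7299674-7299741, minus strand): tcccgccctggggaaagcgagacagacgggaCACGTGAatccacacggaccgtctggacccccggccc
Clcn6 (chr4:148038814-148038892, minus strand): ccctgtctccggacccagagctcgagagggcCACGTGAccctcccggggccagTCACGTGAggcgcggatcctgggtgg
Clcn7, before the start (chr17:25133345-25133390, plus strand): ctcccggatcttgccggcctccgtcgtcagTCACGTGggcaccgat
Clcn7, past the start (chr17:25133387-25133414, plus strand): cgatgatagaTCACGTGAgacctgggcg

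Atp6v0b and Clcn6 each held a pair of cores before the start, and the 2 stretches of Clcn7, on either side of its start, overlapped by a few bases. In Atp6v0d1 the core lay across the start, and in Atp6v0e it lay at or past it. Of the 7 genes, 5 were higher with NUP-17d (Atp6v0b, Atp6v0d1, Atp6v1a, Clcn6 and Clcn7) and none was lower, whereas Atp6v0e and Clcn4 did not pass the test. Of the 13 members whose windows held no core, 9 were higher, 2 were lower and 2 did not pass. Both groups were thus close to the rate of all tested members, of which 21 of 29 were higher, while 16.4% of all genes tested were higher and 18.9% lower. A match is a description of letters, and no binding was measured.

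To ask whether the acidification machinery changed with NUP-17d, the members were read from a fit over all 12306 genes tested (edgeR's quasi-likelihood test, with p-values adjusted by Benjamini-Hochberg over all of them and called at 0.05). Most members rose a little, and 2 abundant members fell. Of the 29 members tested, 21 were called higher with NUP-17d, where 16.4% of all genes tested were called higher. Another 3 (Clcn3, Atp6v0a1 and Dmxl1) were called lower, where 18.9% of all genes were. The other 5 (Atp6v0a2, Atp6v0e, Atp6v1g2, Clcn4 and Clcn5) did not pass. The members' median log2 fold change was 0.22, against 0.01 over all genes, and 26 of 29 were positive. The rises were small, from 1.10-fold to 1.56-fold among the 21, and only Atp6v0d2, Atp6v1h and Clcn3 changed by 1.5-fold or more in either direction. In 22 members every NUP-17d library lay above every DMSO library (22.8% of all genes tested), in 2 members every one lay below (23.2%), and in 5 the groups overlapped. The members were compared by TMM-scaled FPKM (defined below), whereas the shares over all genes come from TMM-scaled counts. Atp6v0e2, Atp6v1b1 and Atp6v1c2, which encode alternative e, B and C subunits best known from other tissues, had at most 1 read in any library and were not tested.

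**Figure D1:**
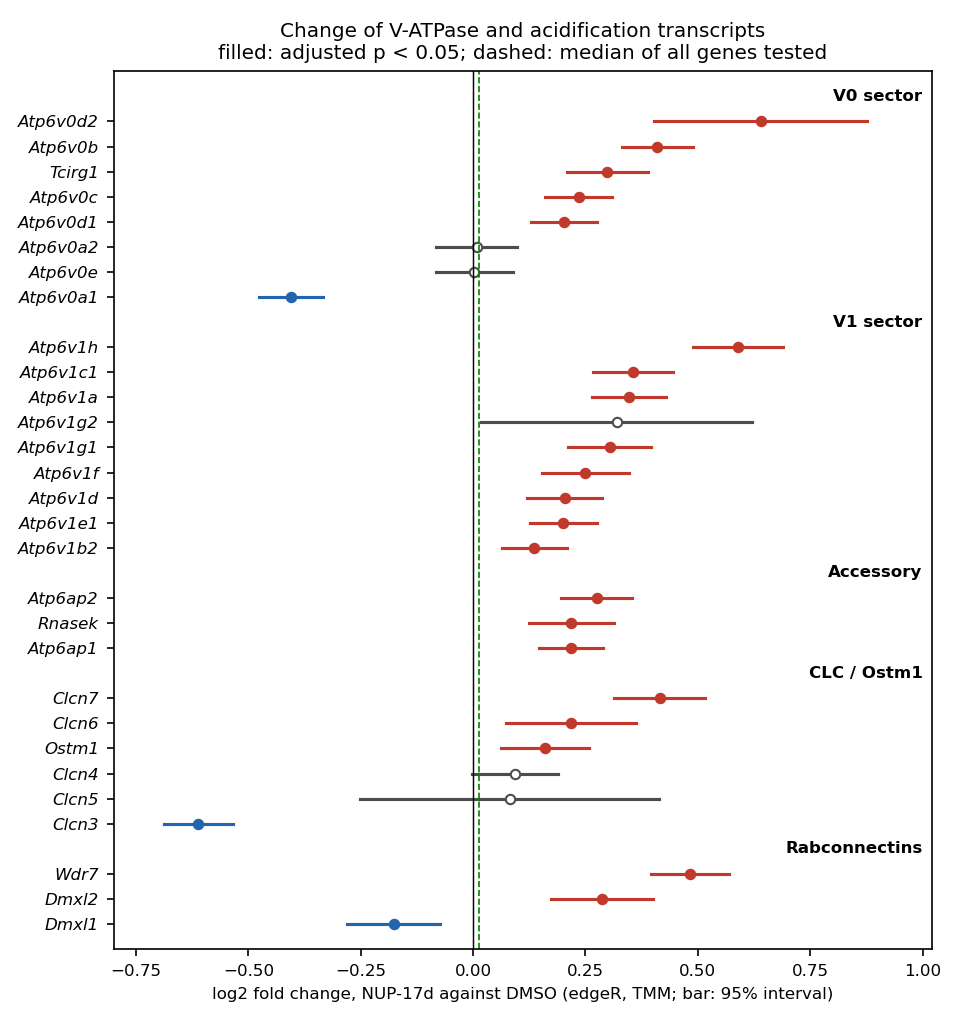
Log2 fold change (NUP-17d over DMSO, horizontal axis) of each of the 29 tested members by sector, with 95% intervals. Filled red points were called higher, filled blue points lower and open grey points neither, and the dashed line is the median of all genes tested (0.01). V1 members all lie to the right of the line, Clcn3 (-0.61) and Atp6v0a1 (-0.41) lie furthest to the left, and Dmxl1 changes sign when libraries are scaled by their totals only.

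The size of these changes depended on how libraries were scaled. Counts were scaled by TMM, which aligns the bulk of the genes. With library totals alone, the median of all genes moved from 0.01 to 0.28, and 92.8% of the genes called were higher instead of 46.5%. Members then numbered 25 higher and 2 lower, and their median was 0.49. Measured from the median of all genes, the members' median was 0.20 under either scaling. A change of scaling moves all genes by nearly the same amount, so this difference could hardly change. Clcn3 (-0.34) and Atp6v0a1 (-0.14) still passed as lower with totals alone, whereas Dmxl1 turned to 0.09 and did not pass, and Atp6v0a2, Atp6v0e, Atp6v1g2 and Clcn4 passed as higher. Changes below are therefore relative to the bulk of the genes.

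**Figure D2:**
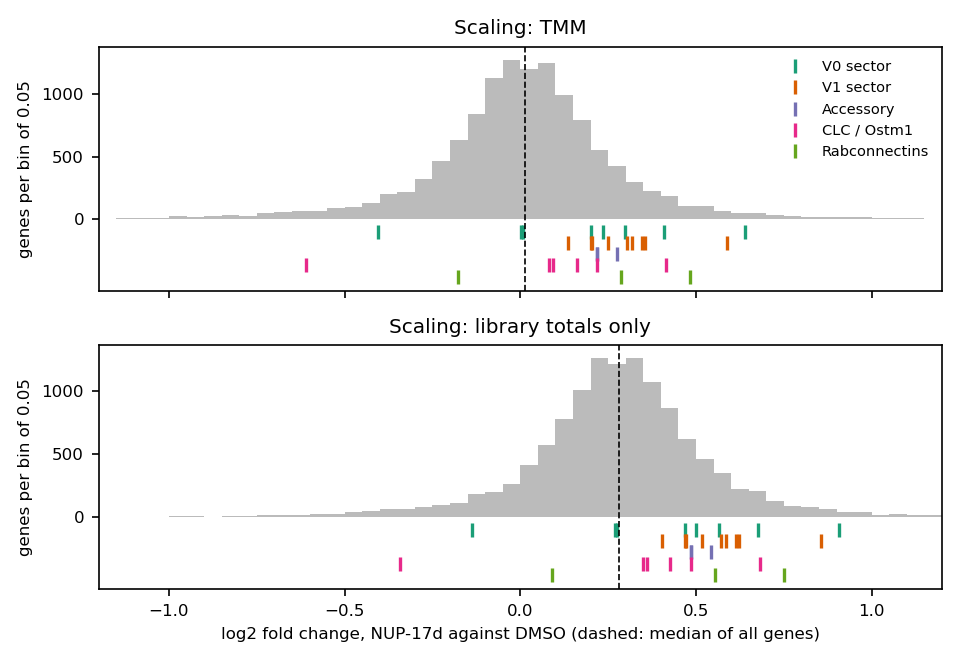
Distribution of log2 fold changes (horizontal axis, shown from -1.2 to 1.2) over all 12306 genes tested, as the number of genes in bins of 0.05 (vertical axis), with TMM scaling and with library totals only. Ticks mark the members by sector, and members and all genes move together, with medians of 0.22 and 0.01 under TMM and of 0.49 and 0.28 with totals only.

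Within V0, 5 of 8 tested genes rose, 1 fell and 2 did not pass. Levels below are the authors' FPKM, which corrects for transcript length, divided by each library's TMM factor (TMM-scaled FPKM). Atp6v0c encodes subunit c, which forms the rotating ring that carries the protons, and was the most abundant member. Its level was 294, 320.2 and 318 in DMSO libraries 1 to 3 and 362, 371 and 368 in NUP-17d libraries 1 to 3, a 1.18-fold rise (adjusted p = 9.87e-06, edgeR). Pseudogene copies of this gene exist, so its reads may be partly theirs, although its counts were whole. Atp6v0b encodes the related ring subunit b. It stood at 94.2, 90.3 and 89.0 with DMSO and at 118, 123 and 123 with NUP-17d, a 1.33-fold rise with a 95% interval of 1.26 to 1.40 (adjusted p = 1.89e-09). The groups did not overlap in either ring gene.

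The stalk that joins the ring to V1 is subunit d. Atp6v0d1, the form made in nearly all cells, was at 108, 109 and 114 with DMSO and 124, 130.2 and 127 with NUP-17d (1.15-fold, adjusted p = 5.38e-05). Its paralog Atp6v0d2, best known from osteoclasts, macrophages and kidney, was far scarcer, at 2.49, 2.55 and 2.43 with DMSO and 4.12, 4.42 and 3.14 with NUP-17d. This was the largest fold change among the members (1.56-fold, 95% interval 1.32 to 1.84, adjusted p = 7.46e-05). NUP-17d library 3 was nearer to the DMSO libraries than the others were. Atp6v0d2 made up 2.21% ± 0.103 (SD, n = 3) of the summed d-subunit FPKM with DMSO and 2.97% ± 0.483 with NUP-17d. Subunit e is a small membrane protein near the stator. Its gene Atp6v0e was at 108, 105 and 110.2 with DMSO and 106, 114 and 105 with NUP-17d, so the groups overlapped (fold 0.944 to 1.06 by the 95% interval, adjusted p = 0.971).

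Subunit a forms the channels through which protons reach and leave the ring, and its paralogs send the pump to different membranes. The genes of its paralogs changed in opposite directions. Atp6v0a1 (chr11:101009422-101063719, GRCm38.p6), the paralog with the highest level here, was at 89.1, 85.8 and 89.4 with DMSO and 65.1, 67.2 and 67.7 under NUP-17d. Every NUP-17d library was below every DMSO library, and the log2 fold change was -0.41 ± 0.034 (SE, adjusted p = 3.33e-10). Tcirg1 (chr19:3896050-3907133), which encodes the a3 form of lysosomes and of the osteoclast border, went the other way. It was at 41.9, 44.9 and 45.4 with DMSO and 51.3, 58.5 and 53.3 with NUP-17d (1.23-fold, adjusted p = 4.68e-06). Atp6v0a2, a form found mainly in the Golgi and in endosomes, was at 8.58, 8.36 and 8.38 and then at 8.62, 8.53 and 8.39 (adjusted p = 0.909). Its fold lay between 0.945 and 1.07 by the 95% interval.

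A share of a subunit within one library does not depend on the scaling between libraries. Atp6v0a1 took 63.8%, 61.7% and 62.4% of the summed FPKM of the a paralogs in the DMSO libraries and 52.1%, 50.1% and 52.3% in the NUP-17d libraries. Tcirg1 took 31.3% ± 1.17 and then 41.9% ± 1.42 (SD, n = 3 per group), and Atp6v0a2 took 6.01% ± 0.146 and 6.58% ± 0.284. Atp6v0a1 was thus 2.003 ± 0.111 times Tcirg1 with DMSO and 1.23 ± 0.0695 times with NUP-17d. None of these shares overlapped between the groups. Across 7 paralog shares, 6 had no overlap, as had 46.0% of all single genes tested by TMM-scaled counts. By a 2-sided exact permutation test these 6 had p = 0.1, the smallest value that 3 against 3 allows (0.117 after Benjamini-Hochberg adjustment). None could thus pass 0.05 in the exact permutation test. The shares of Atp6v0a1, Tcirg1 and Atp6v0a2 are parts of one sum, so they are not separate results. The Atp6v0a2 share rose although its TMM-scaled level hardly changed (1.005-fold).

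**Figure D3:**
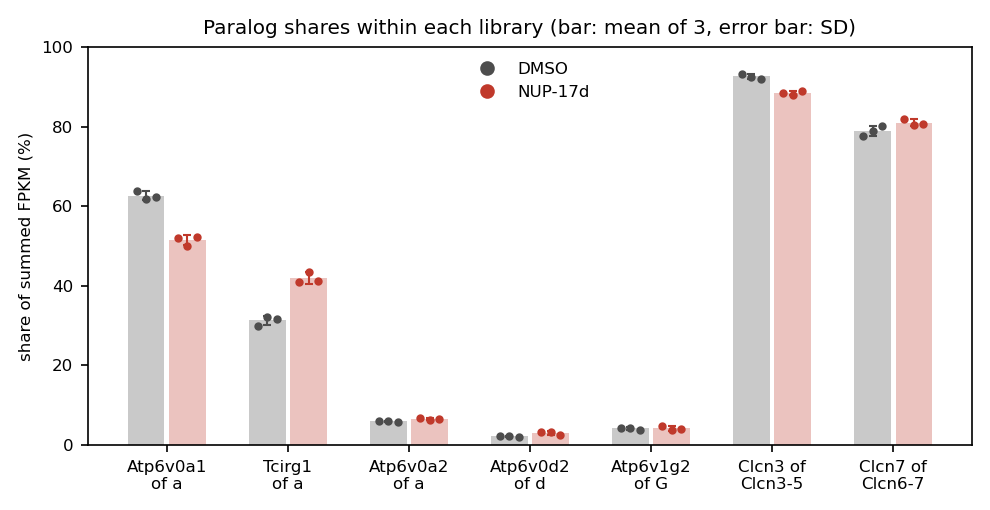
Share of the summed FPKM (%, vertical axis) taken by each paralog within its subunit or exchanger family, by group. Bars are means, error bars are SDs over 3 libraries and points are libraries; the Atp6v0a1 share is 62.7% with DMSO and 51.5% with NUP-17d, and that of Clcn3 is 92.6% and 88.4%.

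V1 was more uniform than V0. Of its 9 tested genes, 8 were called higher, none lower, and Atp6v1g2 did not pass, and the median log2 fold change was 0.30. The rises were of 9.90% to 50.4%. The catalytic hexamer is built of A and B subunits. Atp6v1a, which encodes the subunit with the ATP-hydrolyzing site, was at 30.6, 32.9 and 32.9 with DMSO and 41.6, 42.6 and 38.8 with NUP-17d (1.27-fold, adjusted p = 1.02e-07). Atp6v1b2, the B subunit of most cells, rose least, from 69.7, 71.5 and 72.3 to 76.7, 80.4 and 78.2 (1.10-fold, 95% interval 1.05 to 1.15, adjusted p = 0.00300).

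Atp6v1h (chr1:5082978-5163213) encodes subunit H, which couples ATP hydrolysis to rotation and silences V1 when it is detached from V0. It had the lowest level of the 13 pump positions and the largest rise in V1. It was at 16.2, 17.4 and 17.1 with DMSO and at 25.8, 26.5 and 24.2 with NUP-17d. The groups were well apart, with a log2 fold change of 0.59 ± 0.049 (SE, adjusted p = 1.95e-10) that was above 97.6% of all genes tested. Subunit C, which also comes and goes with assembly, behaved alike in direction. Its gene Atp6v1c1 was at 29.2, 29.0 and 27.6 and then at 36.5, 38.5 and 35.0 (1.28-fold, adjusted p = 2.62e-07).

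The remaining V1 subunits form the central rotor (D and F) and the peripheral stalks (E and G). Atp6v1d stood at 73.8, 72.2 and 74.6 with DMSO and at 79.7, 87.2 and 87.9 with NUP-17d (1.15-fold, adjusted p = 0.000242). Atp6v1f was at 80.4, 75.2 and 71.1 and then at 87.5, 90.8 and 91.9 (1.19-fold, adjusted p = 0.000137). Both rotor genes were separated between the groups. Atp6v1e1 went from 126, 123 and 122 to 138, 144 and 147 (1.15-fold, adjusted p = 7.13e-05). Atp6v1g1 went from 56.6, 52.1 and 52.0 to 64.2, 69.6 and 65.1 (1.23-fold, adjusted p = 5.17e-06). These stalk genes were likewise separated. Atp6v1g2, a G form best known from neurons, was at 2.57, 2.38 and 2.04 and then at 3.26, 2.66 and 2.69. Its groups did not overlap, but it did not pass the test (fold 1.01 to 1.54 by the 95% interval, adjusted p = 0.0939), and its counts were partly shared with other genes. Its share of the G subunit was 4.16% in both groups (exact permutation p = 1).

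The 3 accessory genes all rose by similar amounts. Atp6ap1 (Ac45) guides assembly of V0 in the endoplasmic reticulum. It was at 82.4, 82.3 and 86.2 with DMSO and 95.8, 98.2 and 98.7 with NUP-17d (1.16-fold, adjusted p = 1.59e-05). Atp6ap2, the prorenin receptor, whose membrane part belongs to V0, was at 36.2, 38.1 and 36.5 and then at 44.9, 46.1 and 43.5 (1.21-fold, adjusted p = 2.44e-06). Rnasek, a small membrane protein that sits with V0, was at 89.8, 81.6 and 83.4 and then at 96.5, 97.8 and 103 (1.16-fold, adjusted p = 0.000432). In each of them all NUP-17d libraries were above all DMSO libraries.

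With paralogs summed at each of the 13 pump positions, 11 positions were higher with NUP-17d without overlap, position e overlapped, and position a was lower without overlap, at 141 ± 2.20 (SD, n = 3) with DMSO and 129.5 ± 4.61 with NUP-17d. Among all single genes tested, 22.8% lay above and 23.2% below without overlap, by TMM-scaled counts instead of FPKM. Most positions hold a single tested gene, so these counts largely repeat those of the members. The fall at position a (log2 ratio -0.12) was smaller than the move of the all-gene median with totals only, from 0.01 to 0.28. Its direction therefore depends on the scaling. The TMM-scaled FPKM was spread 18.4-fold between positions with DMSO, from c (311 ± 14.6) down through a, E (124 ± 2.01), d (113 ± 2.89), e (108 ± 2.49) and b (91.2 ± 2.75) to A (32.2 ± 1.32), C (28.6 ± 0.885) and H (16.9 ± 0.616). The ranges of d and e did not overlap, although the gap was less than 1 unit, while the neighbors F, D and B, in the middle of the order, overlapped in turn. The spread was 14.4-fold with NUP-17d, and the order at the bottom (A, C, H) was kept. Positions with lower levels had larger rises, with a correlation of -0.65 between the log2 level with DMSO and the log2 ratio across the 13 positions. This is a description, since the positions share the same libraries and the DMSO level enters both quantities.

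**Figure D4:**
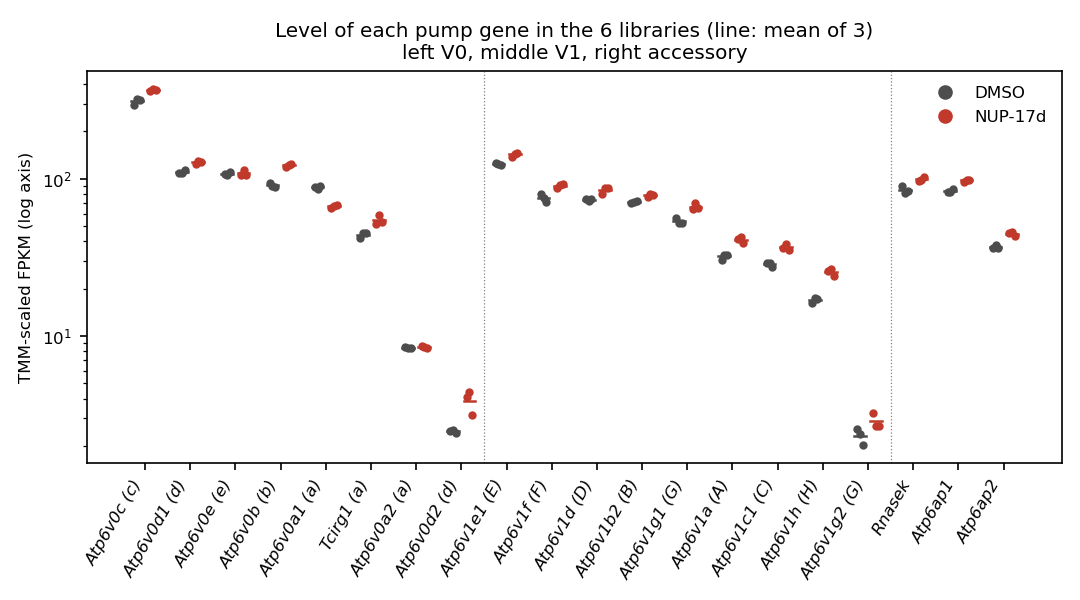
TMM-scaled FPKM (vertical log axis) of each tested V0, V1 and accessory gene in each of the 6 libraries, with points for libraries, lines for group means and DMSO and NUP-17d in separate colors. Atp6v0c is highest (294 to 371) and Atp6v1g2 is among the lowest (2.04 to 3.26), and the groups are separated in every gene shown except Atp6v0a2 and Atp6v0e.

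Summed over genes, V0 was at 763 ± 15.3 with DMSO and 857 ± 19.0 with NUP-17d (1.12-fold), and V1 was at 478 ± 6.79 and 569 ± 14.6 (1.19-fold). Neither sum overlapped between the groups. The ratio of V0 to V1 within a library was 1.54, 1.61 and 1.64 with DMSO and 1.52, 1.51 and 1.501 with NUP-17d. The DMSO libraries were all above the NUP-17d libraries, by little in the case of DMSO library 1. After removal of Atp6v0c and Atp6v1e1, the most abundant gene of each sector, the ratio was 1.28 ± 0.0280 and 1.15 ± 0.00278.

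The exchanger group was split. Clcn3 (chr8:60910389-60983317), an exchanger of endosomes and synaptic vesicles, fell, whereas Clcn7 and its partner Ostm1, the exchanger of lysosomes, rose. Clcn3 was at 151, 145 and 142 with DMSO and 99.4, 92.0 and 96.0 with NUP-17d. The groups were far apart. Its log2 fold change of -0.61 ± 0.037 (SE, adjusted p = 4.02e-13) was the largest fall among the members, with 2.90% of all genes at or below it. Clcn7 was at 11.9, 12.1 and 11.9 and then at 17.0, 16.4 and 14.6 (1.33-fold, 95% interval 1.24 to 1.43, adjusted p = 1.67e-07). Ostm1, without which Clcn7 protein is unstable, was at 15.2, 16.2 and 14.3 and then at 17.6, 16.8 and 16.9 (1.12-fold, adjusted p = 0.0100). Ostm1 did not pass without DMSO library 3 (adjusted p = 0.0914).

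The other exchangers were at lower levels than Clcn7. Clcn6, of late endosomes, was at 3.45, 3.21 and 2.96 and then at 3.74, 3.98 and 3.50 (1.16-fold, adjusted p = 0.0167), and its call was lost without DMSO library 3 (adjusted p = 0.117) and without NUP-17d library 2 (adjusted p = 0.0899). Clcn4, which pairs with Clcn3 in endosomes, was at 10.3, 10.8 and 11.3 and then at 11.8, 11.9 and 11.1. Its groups overlapped, and its fold lay between 0.999 and 1.14 (95% interval, adjusted p = 0.122). Clcn5, best known from kidney proximal tubule, was at 0.801, 0.785 and 0.926 and then at 1.07, 0.786 and 0.749 (fold 0.840 to 1.33, adjusted p = 0.733). It had 60 to 100 reads per library, and a difference within this interval was not detectable at this depth. Clcn3 made up 92.6% ± 0.558 of the FPKM of Clcn3 to Clcn5 with DMSO and 88.4% ± 0.567 with NUP-17d. It was 12.2 ± 0.395 (SD, n = 3) times Clcn7 with DMSO and 6.01 ± 0.516 times Clcn7 with NUP-17d, and neither measure overlapped between the groups. Clcn7 took 78.8% ± 1.25 and then 81.0% ± 0.803 of the FPKM of Clcn6 and Clcn7.

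Rabconnectins are the mammalian counterparts of the yeast RAVE complex, which puts V1 back on V0. Wdr7, which works together with either Dmxl protein, was at 6.59, 6.36 and 6.35 with DMSO and 8.83, 9.15 and 9.07 with NUP-17d (1.40-fold, 95% interval 1.32 to 1.48, adjusted p = 5.80e-10). Its libraries were tightly grouped, and its rise was the third largest of the members. Dmxl2 was at 3.09, 2.82 and 3.08 and then at 3.83, 3.77 and 3.39 (1.22-fold, adjusted p = 0.000166). Dmxl1 was at 5.98, 5.88 and 5.63 and then at 5.70, 5.08 and 4.76, with NUP-17d library 1 inside the DMSO range (log2 fold change -0.18 ± 0.050, adjusted p = 0.00738). The call for Dmxl1 was lost without NUP-17d library 3 (adjusted p = 0.0654), and its direction turned when libraries were scaled by totals only. The ratio of Dmxl1 to Dmxl2, which does not depend on scaling, was 1.95 ± 0.131 with DMSO and 1.41 ± 0.0707 with NUP-17d and did not overlap.

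A list of 31 other genes that assemble or regulate the V-ATPase or move ions across the same membranes was read from the same fit. Of its 30 tested genes, 9 rose and 4 fell, with a median log2 fold change of 0.09. Among all genes tested, 16.4% were called higher and 18.9% lower. Mcoln1, the calcium release channel of lysosomes, was at 17.6, 18.7 and 17.4 with DMSO and 28.02, 27.9 and 26.1 with NUP-17d (log2 fold change 0.61, adjusted p = 5.73e-11). Hvcn1, a voltage-gated proton channel, rose by 0.38 (adjusted p = 1.80e-08), and Lamtor1, the Ragulator anchor that binds the V-ATPase at the lysosome, by 0.22 (adjusted p = 0.000287). Among the genes that fell, Ncoa7, whose protein binds the V-ATPase, changed by -0.50 on the log2 scale (adjusted p = 4.72e-11), the endolysosomal channel gene Tpcn1 by -0.39 (adjusted p = 2.06e-09) and the lysosomal arginine sensor gene Slc38a9 by -0.35 (adjusted p = 4.63e-08). The V0 assembly genes Vma21, Tmem199 and Ccdc115, chosen after their values were seen, did not pass (log2 fold change 0.02, 0.07 and 0.05). Summed over the list, levels were 599 to 615 with DMSO and 598 to 618 with NUP-17d.

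The endosomes that carry transferrin are where the pump serves iron uptake in erythroblasts. In a list of 20 transferrin cycle genes, 6 of 19 tested genes fell and 3 rose (median log2 fold change -0.05). Over all genes tested, 18.9% were called lower and 16.4% higher. Tfrc, the transferrin receptor, was at 451, 438 and 433 with DMSO and 317, 298 and 305 with NUP-17d (-0.53, adjusted p = 6.16e-12). Picalm, an adaptor for its clathrin-mediated uptake, was at 217, 208 and 211 and then at 149, 146 and 149 (-0.53, adjusted p = 1.57e-12). Slc11a2, which carries iron out of the acidified endosome, changed by -0.30 (adjusted p = 6.88e-06). The retromer genes Vps35 (0.26, adjusted p = 1.07e-06, edgeR) and Vps26a (0.16, adjusted p = 0.00297) rose. So did the endosome maturation gene Mon1a (0.26, adjusted p = 0.0256).

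Of 9 tested factors that bind the E-box shown above, 3 rose and 2 fell, all by small amounts. The shares over all genes tested were 16.4% higher and 18.9% lower. Tfeb was at 7.64, 7.02 and 7.05 with DMSO and 8.12, 9.26 and 7.89 with NUP-17d (log2 fold change 0.22, adjusted p = 0.0174). Mitf rose by 0.29 (adjusted p = 0.0147) from a low level (2.04 ± 0.248), and Usf2 rose by 0.15 (adjusted p = 0.00364). Tfe3, at 33.9 ± 1.48 with DMSO the most abundant of the TFEB relatives measured, changed by -0.10. Its adjusted p of 0.0499 (edgeR) was just under the threshold. The groups overlapped, at 35.1, 34.4 and 32.2 with DMSO and 32.5, 31.1 and 31.6 with NUP-17d. Max changed by -0.16 (adjusted p = 0.00121). RNA levels do not show where these proteins were in the cell.

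Markers of several cell types also changed, not all in the direction of most members, and their part in the results was not tested. The marker counts here and below stand beside 16.4% of all genes tested called higher and 18.9% called lower. All 18 erythroid markers fell (median log2 fold change -0.68), with summed levels of 345830 to 401740 with DMSO and 189090 to 213430 with NUP-17d. Examples were Trim58 (-1.03, adjusted p = 8.94e-16) and Bpgm (-0.80). Tfrc is also on this list. Of 14 tested macrophage markers, 4 rose and 2 fell, and their summed level was 2487 to 2693 with DMSO and 2817 to 3085 with NUP-17d. Lyz2 alone, at 2280 ± 88.4 and then at 2586 ± 113 (SD, n = 3), made up most of the sum and of its rise. Among them Cd68 (0.30, adjusted p = 3.56e-06) and Lyz2 (0.18) rose and C1qa (-0.65) and Adgre1 (-0.15) fell, while Timd4 had at most 3 reads in any library.

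The osteoclast list bears on Tcirg1 and Atp6v0d2, which are high in that cell type. Of its 5 tested genes, Itgb3 (0.32) and Nfatc1 (0.17) rose and Acp5 (-0.39) fell. The fusion genes Ocstamp and Dcstamp and the receptor gene Oscar had at most 2, 4 and 6 reads in any library and were not tested. Summed levels were 32.2 to 33.0 with DMSO and 36.3 to 37.2 with NUP-17d. Itgb3 alone was at 15.1 ± 0.520 (SD, n = 3) and then at 18.9 ± 0.753, which was most of that rise. Megakaryocyte markers had 5 of 7 higher and none lower (299 to 333 and then 346 to 373 summed), with Gp1bb at 0.47, Vwf at 0.21 and Pf4 at 0.17. Of 10 neutrophil markers, 1 rose (Ngp, 0.17) and 2 fell (Fcnb, -0.20, and Camp, -0.17), with sums of 3253 to 3417 and 3303 to 3533. Of 8 tested mast cell and basophil markers, 2 rose (Kit, 0.19, and Cpa3, 0.13) and 3 fell, led by Prss34 (-0.30) and Mcpt8 (-0.39), with sums of 231 to 245 and 209.7 to 217.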

How the data were processed

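RNA from cultured lineage-negative BM cells was measured in 3 DMSO and 3 NUP-17d libraries, grouped by their labels. Per the labels, mRNA was enriched by oligo(dT), primed with random hexamers and read on a DNBseq machine; the study's methods instead name a stranded kit and an Illumina instrument. The authors deposited, per library, an expected count (reads estimated per gene, not normalized, with 27.8% to 28.5% of values not whole because reads matching several genes are shared) and FPKM (the authors' count per transcript length and library total). The submitters' processing notes name the build mm10. The aligner, the counting tool and the use of strand are not given in the sources used here. A gene not listed in a library was taken as 0.

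Expected counts were rounded, filtered with filterByExpr, scaled by TMM and tested with edgeR 4.0.16 (glmQLFit and glmQLFTest, R 4.3.3) with Benjamini-Hochberg adjustment at 0.05. Levels are deposited FPKM divided by the library's TMM factor (0.887 to 1.11), and errors are SDs over 3 libraries. Alternatives were DESeq2 1.42.0, RLE factors, library totals only, no low-count filter, removal of hemoglobin genes, limma 3.58.1 on log2(FPKM + 1), with and without TMM scaling, or on log2(FPKM + 0.1) (mean FPKM of at least 1), the replicate number as a block, shares from counts, and leaving out each library. The fits were tested on simulated counts.

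Members, gene lists and tests were chosen with earlier results of these data known. The named genes were every tested member and up to 3 genes of lowest p-value in each direction per list; others are marked in the text as picked with their values known. A few genes under this rule are not reported here. Tested members had 59.4 to 15093 reads per library. Reads of Atp6v0d2, Atp6v1g2, Clcn4 and Ostm1 were partly shared with other genes. Gene coordinates and promoters are RefSeq's (GRCm38.p6), and all 32 members matched by symbol or identifier. The lists of 31 pump assembly and ion transport genes and 20 transferrin cycle genes count a gene with an older and a newer symbol once. Tf and Calcr, which had no row under these symbols, were not analysed here.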

Additional observations from a re-analysis of the deposited data

How the results depend on the processing

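The count of genes called (4346) became 9113 with library totals only, 8494 with limma on log2(FPKM + 1) and 8480 with log2(FPKM + 0.1), all 3 without correction for library composition. It was 3713 to 4009 when each library was left out in turn, and members called higher were then 19 to 21 and lower 2 to 3. DESeq2 called 2971 genes, with 19 members higher and 3 lower. Of the alternatives run for single members, 402 kept direction and side of the threshold, 12 passed newly, 8 lost the call and 10 changed sign. The sign changes were those of Atp6v0a2 (-0.00014 without DMSO replicate 2, -0.0014 without NUP-17d replicate 1, and up to 0.019 without another library), Atp6v0e (-0.0022 with DESeq2, -0.0016 with RLE factors, -0.016 without DMSO replicate 2, -0.038 without NUP-17d replicate 2, and up to 0.023 without another library), Clcn5 (-0.097 without NUP-17d replicate 1, up to 0.17 without another library) and Dmxl1 (0.091 with totals only, 0.079 with log2(FPKM + 1), 0.091 with log2(FPKM + 0.1)). The cause was not tested. Lost calls were those of Clcn6 (DESeq2 adjusted p = 0.117, limma on TMM-scaled FPKM 0.0572), Ostm1 (DESeq2 0.0670) and Dmxl1 (limma on TMM-scaled FPKM 0.0832), beside those given for left-out libraries. From expected counts, which carry no length correction, the share differences were 8.92 percentage points for Tcirg1 (10.6 from FPKM), 1.18 for Atp6v0a2 (0.57) and -3.40 for Clcn3 (-4.15), and the V0 to V1 ratio differed by -0.186 (-0.0899 from FPKM). Same-numbered libraries deviated together only weakly (r = 0.11, 0.042 and 0.022), so the numbers were not taken as pairs, and the replicate block called 4543 genes with 21 members higher and 3 lower.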
